A study of Solenopsis invicta with 3 samples.

Results

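In the official gene set of the fire ant *Solenopsis invicta*, 62 genes passed a minimum count and had more antennal RNA in the library of monogyne workers. Their level there was at least 2-fold above both libraries of polygyne workers, which lay within 2-fold of each other. They were chosen from 3 RNA-Seq libraries of worker antennae, 1 for each worker class: monogyne *SB/SB* workers (M_BB), polygyne *SB/Sb* workers (P_Bb) and polygyne *SB/SB* workers (P_BB). Monogyne colonies have a single queen and polygyne colonies have many, and *SB* and *Sb* are the alternative forms of the social supergene. All workers were foragers drawn by honey and genotyped one by one, and each library mixed the cDNA of 4 colonies, each colony's cDNA having been amplified on its own (NuGEN Ovation). P_Bb and P_BB came from the same 4 polygyne colonies and M_BB came from 4 other colonies, so social form and colony cannot be told apart. M_BB and P_BB had the same supergene genotype and P_Bb differed from both.

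A gene entered the set where its mean normalized count over the 3 libraries was at least 10, its log2(normalized count + 1) in M_BB was at least 1 above that in P_Bb and in P_BB, and the polygyne libraries differed by less than 1 from each other. Because that mean includes M_BB, some members reached 10 only through their M_BB value. Examples are SINVm1_gene_10902, SINVm1_gene_13675 and SINVm1_gene_02079, whose means over the polygyne libraries were 0, 3.60 and 4.75. In SINVm1_gene_00026, SINVm1_gene_02092 and SINVm1_gene_06841 these means were 6.73, 8.41 and 9.25. Further members, not named here, also had means over the polygyne libraries under 10, from 5.29 to 9.49. A normalized count is the expected count of reads divided by the upper-quartile size factor of the library. Of 15589 official genes, among 19703 entries in the reference, 7897 passed the minimum, and the 62 members were 0.785% of them. Without the condition on the polygyne libraries, 67 genes would have entered. Those it left out had log2 ratios of M_BB to the nearer polygyne library from 1.001 to 4.60. The highest, named after their values were seen, were SINVm1_gene_02188 (48.5 normalized counts in M_BB, 0 in P_Bb, 1.04 in P_BB) and SINVm1_gene_02110 at 3.26. The opposite pattern, at least 2-fold lower in M_BB than in both polygyne libraries with these within 2-fold, was met by 42 genes (0.532%). The values below were used to choose the members and are a description. Each class had 1 library, so nothing was replicated and classes were not tested against each other. The 95% Clopper-Pearson intervals are a comparison of libraries and not of conditions. They cover counting error only, as do the floors, because amplified reads without molecular identifiers are not independent molecules.

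Workers of both social forms perceive nestmates and queens with the antennae, and much of what they perceive is a blend of long-chain hydrocarbons on the cuticle. Insects build these hydrocarbons from fatty acids: fatty acid synthase makes the chain, acyl-CoA desaturases add double bonds, and fatty acyl-CoA reductases reduce the acyl chain on the way to alcohols and hydrocarbons. Prophenoloxidase is the inactive form of the enzyme that drives melanization, a defense of the insect cuticle and blood.

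The libraries held between 3351500 and 3948464 expected counts. Entries for odorant receptors (SiOR), which mark the olfactory sensory neurons of the antenna, were detected in each library, with 440 of 473 above 0 in M_BB, against 444 in P_Bb and 447 in P_BB. They took 0.696% of the counts in M_BB, against 0.765% in P_Bb and 0.794% in P_BB, and the part of this difference in the results below was not tested. In bulk tissue, fewer cells of a type and less RNA per cell cannot be told apart.

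The 62 members together took 0.451% of all counts in M_BB, against 0.123% in P_Bb and 0.132% in P_BB. A single gene, SINVm1_gene_13864, made up 0.192% of the counts in M_BB, against 0.0335% in P_Bb and 0.0428% in P_BB. Without it, the other 61 members took 0.258% of the counts in M_BB, against 0.09% in P_Bb and 0.0889% in P_BB. The polygyne libraries thus lay close together with or without the most abundant member, as the rule requires of each gene within 2-fold.

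The log2 ratio of M_BB to the nearer polygyne library, the smaller of the ratios to P_Bb and P_BB, had a median of 1.31 over the members and -0.10 over all 7897 official genes compared. It lay between 1.003 and 5.61, and 25 members were below 1.2 while 11 were at 2 or more, that is at least 4-fold (0.165% of all compared genes, members or not). Against P_Bb the median log2 ratio was 1.45, and against P_BB it was 1.54. A ratio of at least 2-fold to P_Bb alone was met by 2.29% of all official genes compared, and to P_BB alone by 2.33%. The M_BB values ran from 21.6 to 6827 normalized counts with a median of 71.2, against 0 to 1196 with a median of 22.4 in P_Bb and 0 to 1528 with a median of 22.9 in P_BB.

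**Figure D1:**
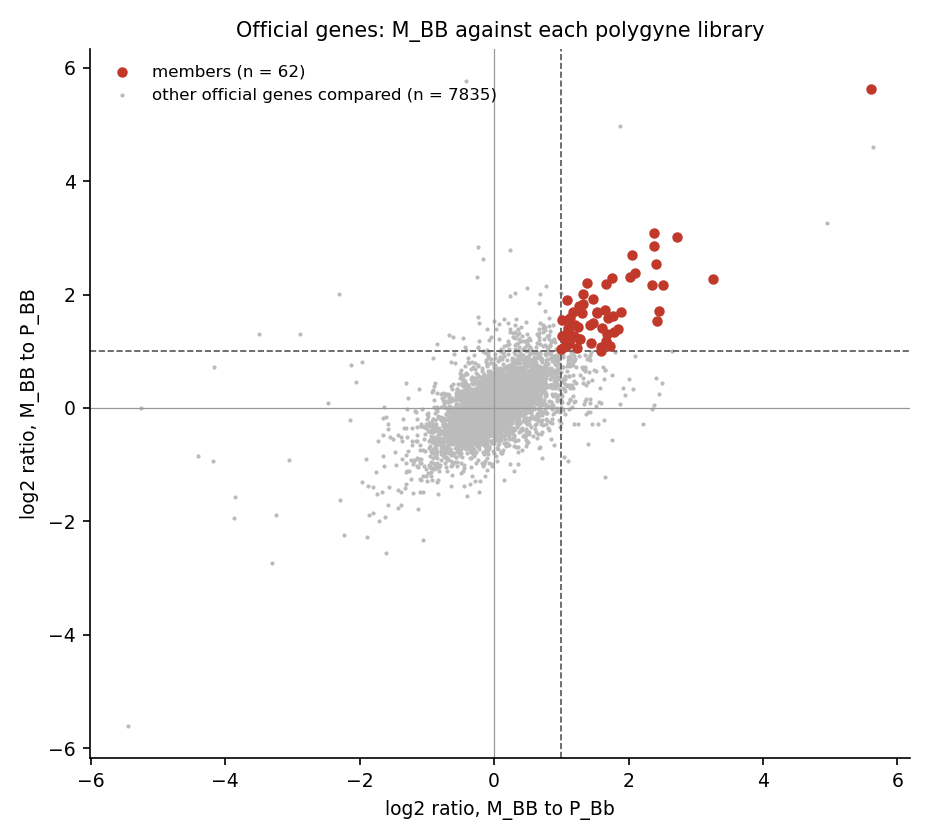
Each point is an official gene, with the log2 ratio of M_BB to P_Bb on the x axis and of M_BB to P_BB on the y axis, both on the scale log2(normalized count + 1). The 62 members (red) lie beyond both dashed lines, which mark a ratio of 2-fold. The other 7835 genes compared (grey) centre near 0 on both axes, and the few grey points beyond both lines failed the condition on the polygyne libraries.

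The members with a predicted function in the study were a desaturase, a reductase and a prophenoloxidase. These were the only 3 of the 62 that the study lists as higher in monogyne workers, and the other 59 carried no name in the sources used here. The list was drawn up from other sequencing of the same amplified cDNA, so the overlap is not independent evidence of its direction.

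SINVm1_gene_14166, predicted to encode an acyl-CoA delta desaturase, had 830.4 normalized counts in M_BB, against 199 in P_Bb and 128 in P_BB. The gene was 5.07-fold higher in M_BB than the mean of the polygyne libraries, and its log2 ratio to that mean was 2.34 (95% counting interval 2.16 to 2.53). The polygyne libraries also differed from each other, with P_Bb above P_BB by 0.64 on the log2 scale, but M_BB was far above either. SINVm1_gene_02300, predicted to encode prophenoloxidase subunit 2, had 466 normalized counts in M_BB, against 161 in P_Bb and 146 in P_BB, which put M_BB 3.03-fold above the polygyne mean (log2 ratio 1.59, 95% counting interval 1.39 to 1.81). SINVm1_gene_01163, predicted to encode a fatty acyl-CoA reductase, had 282 normalized counts in M_BB, against 131 in P_Bb and 115 in P_BB. Its log2 ratio to the polygyne mean was 1.19 (95% counting interval 0.95 to 1.45), so counting error alone leaves room for a value slightly under 2-fold. Per length, the desaturase stood at 226 TPM in M_BB, against 52.9 in P_Bb and 34.6 in P_BB. The prophenoloxidase was at 62.9 TPM in M_BB, against 21.2 in P_Bb and 19.6 in P_BB, and the reductase at 62.9 TPM in M_BB, against 28.5 in P_Bb and 25.4 in P_BB. The desaturase was therefore the most abundant of the 3 in every library.

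The study lists 17 official genes as higher in monogyne workers. Of the 14 that passed the minimum count, 13 were higher in M_BB than in both polygyne libraries by any amount, a pattern met by 36.0% of all official genes compared. The list was chosen on the same amplified material, so this count is not independent evidence either. The median log2 ratio of the 14 to the nearer polygyne library was 0.37. Besides the 3 members, 10 listed genes were higher in both comparisons with log2 ratios to the nearer library between 0.07 and 0.68, below the 2-fold that membership required. The exception among the 14, SINVm1_gene_10887, an uncharacterized protein named here after its values were seen, had 8.21 normalized counts in M_BB, against 13.8 in P_Bb and 12.0 in P_BB. Under the minimum count, SINVm1_gene_00053 and SINVm1_gene_10899 were also not above both polygyne libraries. The first had 3.60 normalized counts in M_BB, against 2.80 in P_Bb and 7.57 in P_BB. The second had 4.74 in M_BB, against 1.47 in P_Bb and 4.88 in P_BB. Counts this low do not fix a direction.

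Other listed genes of metabolism showed smaller ratios. SINVm1_gene_01650, predicted to encode a glycerol-3-phosphate acyltransferase, which starts the building of glycerolipids from fatty acids, had 291 normalized counts in M_BB, against 199 in P_Bb and 236 in P_BB, and both 95% counting intervals lay above 0 on the log2 scale (0.29 to 0.82 against P_Bb and 0.05 to 0.56 against P_BB). SINVm1_gene_03610, predicted to encode the synthase of trehalose phosphate, the precursor of the main insect blood sugar, had 77.3 normalized counts in M_BB, against 57.6 in P_Bb and 31.3 in P_BB. Its log2 ratio was 1.28 against P_BB but 0.42 against P_Bb, where the 95% counting interval ran from -0.08 to 0.94 and so reached equal levels. SINVm1_gene_04127, predicted to encode a UDP-glucuronosyltransferase, an enzyme class that conjugates small molecules for removal, was the most abundant of these at 2445 normalized counts in M_BB, against 2075 in P_Bb and 1987 in P_BB. Its log2 ratios were 0.24 to P_Bb and 0.30 to P_BB, small but outside counting error (95% counting intervals 0.15 to 0.32 against P_Bb and 0.21 to 0.39 against P_BB). SINVm1_gene_00676, listed as a fatty acid synthase, had 1 count in M_BB and 0 in P_Bb and P_BB, under the floor of 3 counts that a count of 0 allows, and no ratio can be given at this depth.

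**Figure D2:**
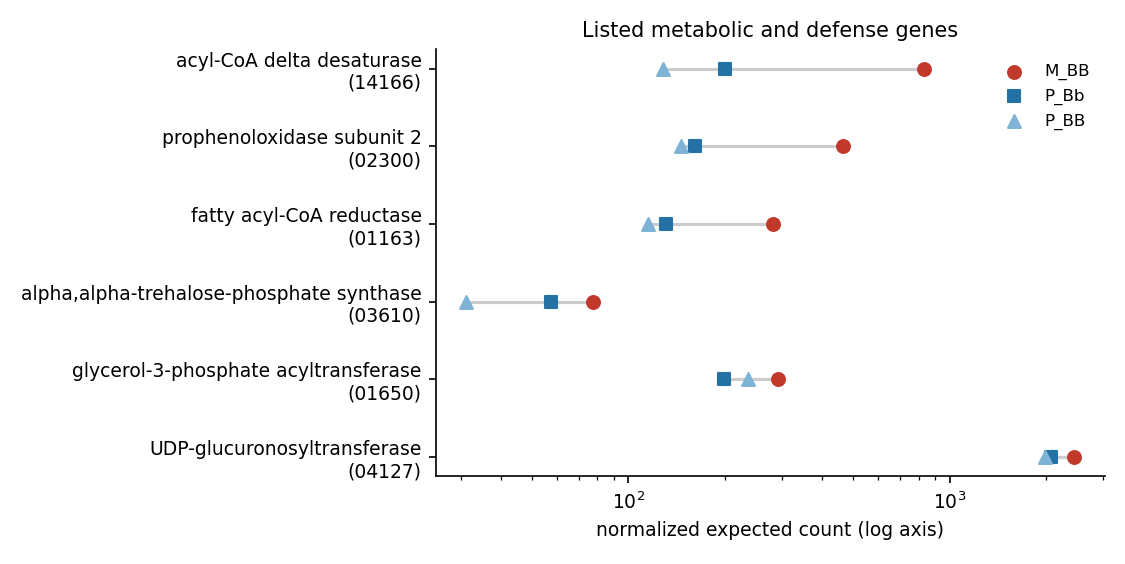
Normalized expected counts (log axis) of the 6 listed metabolic and defense genes that passed the minimum count, in M_BB, P_Bb and P_BB, with a grey line from the lowest to the highest library. The desaturase, the prophenoloxidase and the reductase show a wide gap between M_BB and both polygyne libraries, while in the other 3 genes M_BB is the highest library by a smaller distance.

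Among all members, 12 had a mean of at least 100 normalized counts, where counting error is smallest. SINVm1_gene_13864, which has no predicted function in the sources used here, had 6827 normalized counts in M_BB, against 1196 in P_Bb and 1528 in P_BB. This was 5.01-fold above the polygyne mean, a log2 ratio of 2.32 (95% counting interval 2.26 to 2.39). Per length it was at 2937 TPM in M_BB, against 503 in P_Bb and 654 in P_BB, and ranked 27 among official genes in M_BB, against 224 in P_Bb and 163 in P_BB. No other member was as abundant in any library.

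The next members in abundance also stood clear of both polygyne libraries, though by less. SINVm1_gene_05171 had 1004 normalized counts in M_BB, against 317 in P_Bb and 442 in P_BB (log2 ratio to the polygyne mean 1.40, 95% counting interval 1.27 to 1.54). SINVm1_gene_07994 had 952 in M_BB, against 403 in P_Bb and 459 in P_BB (1.14, interval 1.01 to 1.28). In both, P_BB was above P_Bb, which held for 5 of the 12 abundant members, against 7 with P_Bb the higher. SINVm1_gene_13824 had 693 normalized counts in M_BB, against 304 in P_Bb and 288 in P_BB (1.22, interval 1.07 to 1.39), and SINVm1_gene_04574 had 535 in M_BB, against 247 in P_Bb and 241 in P_BB (1.13, interval 0.95 to 1.31). The polygyne libraries nearly coincided for these 2 genes, at log2 differences of 0.08 and 0.04.

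The remaining abundant members had 206 to 294 normalized counts in M_BB. SINVm1_gene_01130 had 294 normalized counts in M_BB, against 78.9 in P_Bb and 89.7 in P_BB. Its log2 ratio to the polygyne mean was 1.79 (95% counting interval 1.52 to 2.08). SINVm1_gene_13844 had 263 in M_BB, against 123 in P_Bb and 98.1 in P_BB (1.24, interval 0.99 to 1.51). SINVm1_gene_10535 had 227 in M_BB, against 40.4 in P_Bb and 68.7 in P_BB (2.04, interval 1.71 to 2.39). In this last gene the polygyne libraries differed by -0.75 on the log2 scale, P_Bb being the lower, the widest gap among the 12. SINVm1_gene_13295 had 206 in M_BB, against 82.1 in P_Bb and 63.7 in P_BB (1.48, interval 1.19 to 1.81). For 6 of the 12 abundant members (SINVm1_gene_13864, SINVm1_gene_05171, SINVm1_gene_14166, SINVm1_gene_02300, SINVm1_gene_01130 and SINVm1_gene_10535) the intervals of both ratios lay wholly above 2-fold, and for the other 6 at least 1 interval reached below it.

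**Figure D3:**
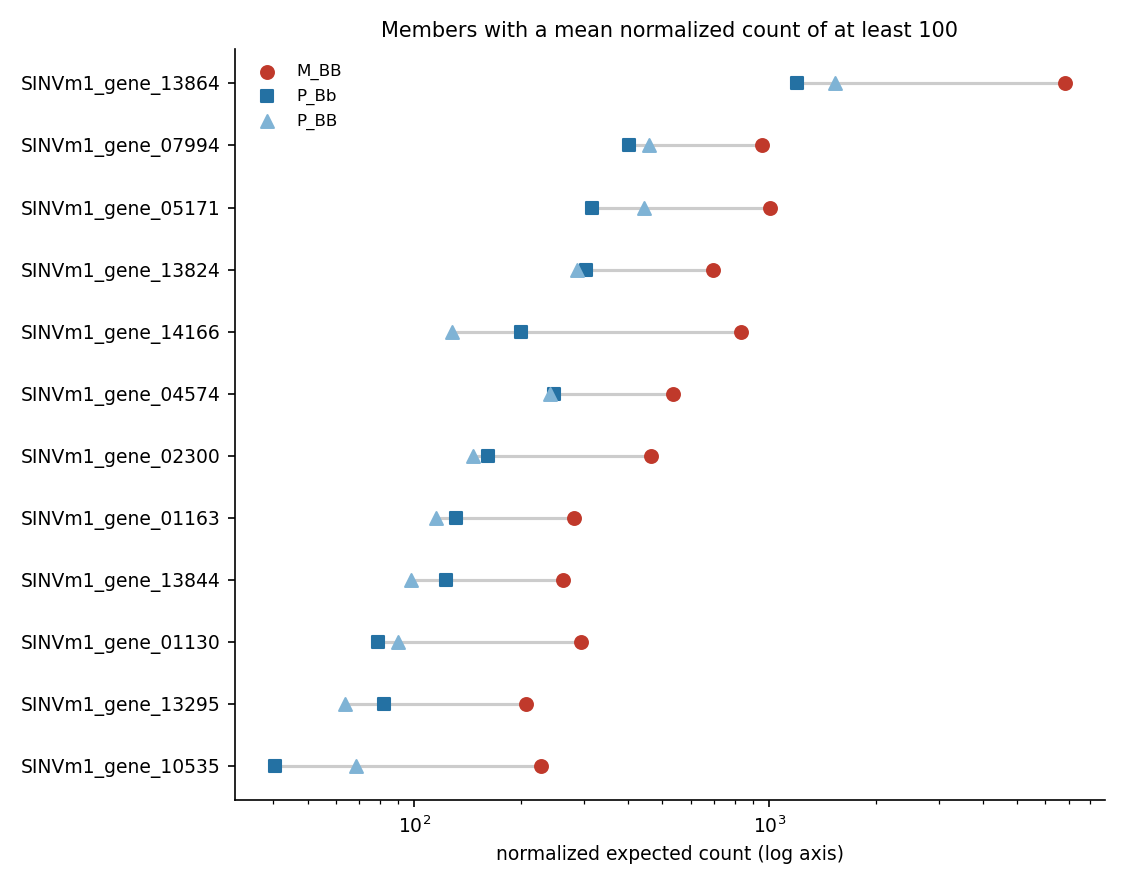
Normalized expected counts (log axis) of the 12 members with a mean of at least 100, in M_BB (red circles), P_Bb (dark squares) and P_BB (light triangles), ordered by mean, with a grey line from the lowest to the highest library. M_BB lies apart to the right in every row, and which polygyne library is lower changes from gene to gene.

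Outside these, the 10 members with the largest ratios had means between 11.9 and 65.6 normalized counts, and none had a predicted function in the sources used here. SINVm1_gene_00260, the longest member at 13341 bases of coding length, had 126 normalized counts in M_BB, against 18.1 in P_Bb and 14.6 in P_BB. Its log2 ratio to the polygyne mean was 2.87 (95% counting interval 2.37 to 3.55). SINVm1_gene_15260 had 131 in M_BB, against 24.5 in P_Bb and 17.2 in P_BB (2.60, interval 2.15 to 3.22), and SINVm1_gene_05380 had 146 in M_BB, against 26.7 in P_Bb and 24.3 in P_BB (2.47, interval 2.05 to 3.02). In all 3 the counting interval of the ratio to the polygyne mean stayed above 4-fold, while for SINVm1_gene_15260 and SINVm1_gene_05380 the interval against P_Bb alone began lower, at 1.78 and 1.84 on the log2 scale, as did that of SINVm1_gene_05380 against P_BB, at 1.97. SINVm1_gene_01431 had 107 in M_BB, against 25.6 in P_Bb and 20.9 in P_BB (2.16, interval 1.69 to 2.74), and SINVm1_gene_00237 had 125 in M_BB, against 36.2 in P_Bb and 24.9 in P_BB (2.00, interval 1.58 to 2.50).

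The rest of the 10 had polygyne values near the lower end of what could be counted. SINVm1_gene_02092 had 59.3 normalized counts in M_BB, against 5.33 in P_Bb and 11.5 in P_BB. Its log2 ratio to the polygyne mean was 2.68 (95% counting interval 2.01 to 3.70). Its polygyne libraries differed by -0.98 on the log2 scale, just within the limit of the rule. SINVm1_gene_00026 had 35.8 in M_BB, against 6.24 in P_Bb and 7.22 in P_BB (2.25, interval 1.46 to 3.42), and SINVm1_gene_02079, the only member with more than 1 transcript in the reference, had 26.1 in M_BB, against 5.33 in P_Bb and 4.17 in P_BB (2.23, interval 1.34 to 3.72). SINVm1_gene_13675 had 31.9 expected counts in M_BB, against 4.4 in P_Bb and 2.4 in P_BB, the last at or under the floor of 3 counts. Its log2 ratio to P_BB was 3.08, with a 95% counting interval of 1.81 to 6.89 that shows how little 2.4 counts fix.

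**Figure D4:**
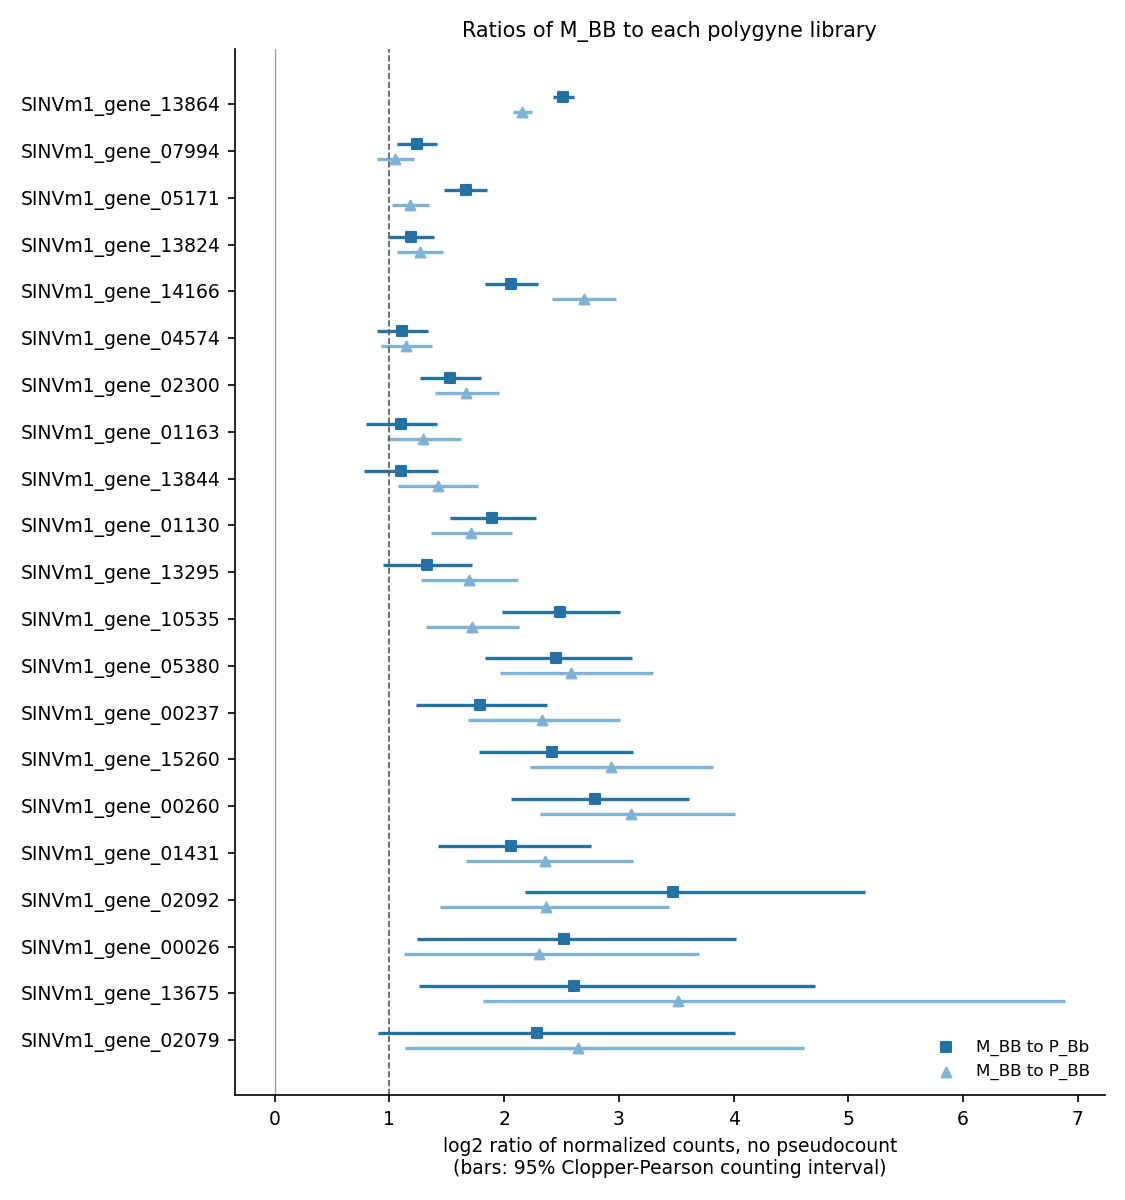
Log2 ratios of M_BB to P_Bb (dark squares) and to P_BB (light triangles), without pseudocount, for the 12 abundant members and 9 of the 10 others with the largest ratios, ordered by mean count, with 95% Clopper-Pearson counting intervals as bars. Every interval lies to the right of 0, the solid line, and the bars widen down the page as counts fall; the dashed line marks 2-fold. SINVm1_gene_10902, with 0 expected counts in both polygyne libraries, is not drawn.

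SINVm1_gene_10902 had the largest ratio of all members, and it rested on how reads shared with other entries were divided. It had 53.4 expected counts (48.0 normalized) in M_BB and 0 in P_Bb and P_BB. Against a floor of 3 counts per library, M_BB was at least 15.0-fold higher than P_Bb and at least 15.3-fold higher than P_BB in these expected counts. The deposited tables also give the mean of each count over repeated draws of the read division, and there the gene had 36.9 counts in M_BB, against 13.3 in P_Bb and 15.2 in P_BB, with posterior standard deviations of 9.51 in M_BB, against 9.02 in P_Bb and 11.1 in P_BB. On these posterior means the log2 ratio to the nearer polygyne library was 1.02 in place of 5.61. The deposited TPM intervals, whose level the files do not state, overlapped, at 16.7 to 62.6 in M_BB, up to 40.0 in P_Bb and up to 45.8 in P_BB. The bound of 15.0-fold therefore holds only for the expected counts as deposited, and the reads do not fix a difference of that size. Without this gene the median log2 ratio over the other 61 members was 1.30.

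For the other members the posterior mean lay closer to the expected count, although SINVm1_gene_00057 had larger posterior standard deviations than SINVm1_gene_10902 in every library. The posterior standard deviation reached 1 count in at least 1 library for 12 of the 62 members (19.4%) and for 9.41% of all official genes compared. Relative to the count in M_BB it was largest in SINVm1_gene_10902, SINVm1_gene_00057, SINVm1_gene_06841, SINVm1_gene_00422 and SINVm1_gene_12103. SINVm1_gene_00057 had 70.6 normalized counts in M_BB, against 32.5 in P_Bb and 26.9 in P_BB, and its posterior standard deviation was 10.8 counts in M_BB, against 11.1 in P_Bb and 11.9 in P_BB, large beside the 30.4 and 25.8 expected counts of P_Bb and P_BB. Its deposited TPM interval in M_BB was not wholly above those of both polygyne libraries. SINVm1_gene_06841 had 30.7 normalized counts in M_BB, against 11.6 in P_Bb and 6.87 in P_BB, with a posterior standard deviation of 2.31 counts in M_BB. Apart from SINVm1_gene_10902, no posterior mean of a member differed from its expected count by more than 2.19 counts. The abundant SINVm1_gene_13864 had a posterior standard deviation of 2.08 counts in M_BB beside 7597 expected counts.

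The deposited TPM intervals cover both counting and read division, but their level is unknown, so they cannot be set beside the 95% counting intervals. They were wholly above those of both polygyne libraries for 51 of the 62 members, and for 5.43% of all official genes compared. Since the same counts chose the members, nothing is read from the difference between these shares. The 11 members whose intervals overlapped had means from 11.9 to 43.3 normalized counts. The 95% counting intervals excluded 1-fold in both ratios for 62 of 62 members, against 8.03% of all official genes compared, and lay above 2-fold in both ratios for 18 members (0.253% of all compared genes, members or not), SINVm1_gene_10902 among them on its expected counts. The rule on these same counts nearly fixed the first of these results, so nothing is read from it either.

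The threshold cut through a continuous range of ratios. Just inside it were SINVm1_gene_02638, SINVm1_gene_00402, SINVm1_gene_07176, SINVm1_gene_12103 and SINVm1_gene_00422, with log2 ratios to the nearer polygyne library between 1.003 and 1.022. Just outside were SINVm1_gene_09592, SINVm1_gene_02993, SINVm1_gene_02069, SINVm1_gene_03216 and SINVm1_gene_04240, between 0.97 and 0.99. SINVm1_gene_02638 had 90.8 normalized counts in M_BB, against 44.8 in P_Bb and 43.8 in P_BB, while SINVm1_gene_09592 had 50.7 in M_BB, against 22.4 in P_Bb and 25.0 in P_BB. Of the other genes just inside, SINVm1_gene_00422 had 77.7 in M_BB, against 37.8 in P_Bb and 31.8 in P_BB, and SINVm1_gene_00402 had 47.1 in M_BB, against 15.0 in P_Bb and 22.9 in P_BB. SINVm1_gene_07176 had 44.0 in M_BB, against 21.3 in P_Bb and 17.7 in P_BB, and SINVm1_gene_12103 had 30.6 in M_BB, against 14.7 in P_Bb and 9.86 in P_BB. In 3 of these 4 the nearer library was P_Bb, and in SINVm1_gene_00402 it was P_BB. Of those just outside, SINVm1_gene_02069 had 72.8 in M_BB, against 36.3 in P_Bb and 23.0 in P_BB. SINVm1_gene_03216 had 35.9 in M_BB, against 9.60 in P_Bb and 17.7 in P_BB, and SINVm1_gene_02993 had 27.9 in M_BB, against 9.60 in P_Bb and 13.6 in P_BB. SINVm1_gene_04240, at 219 in M_BB, against 97.0 in P_Bb and 112 in P_BB, stayed outside although its counts were higher than those of most members. Differences this small lay within counting error, as the 95% counting interval of SINVm1_gene_02638 against P_Bb ran from 0.49 to 1.57.

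Members were mostly genes of low abundance. Their median mean count was 44.4, against 133 for all official genes compared, and 50 of the 62 had means under 100. Of the genes with a mean of 10 to 20, 2.07% were members (17 of 820 genes). From 20 to 50 the share was 1.42% (18 of 1267), and from 50 to 100 it was 1.17% (15 of 1282). Between 100 and 1000 the share was 0.279% (11 of 3941), and above 1000 it was 0.17% (1 of 587), the 1 gene being SINVm1_gene_13864. Counting error widens the spread of ratios at low counts, and its part in these shares was not tested. The mean also includes the M_BB value, which the rule required to be high. Some of the 17 genes with a mean of 10 to 20 therefore passed the minimum only through M_BB. The 42 genes lower in M_BB had a median mean count of 16.6, and 2 of them had a mean of at least 100, against 12 of the 62 members.

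**Figure D5:**
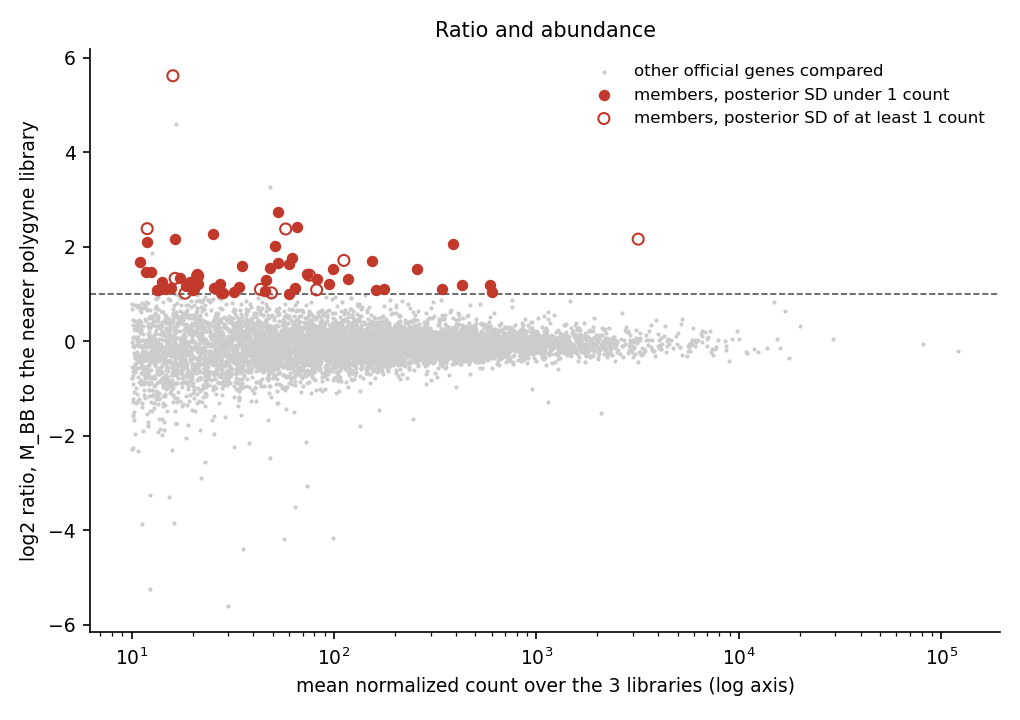
The log2 ratio of M_BB to the nearer polygyne library (y axis) against the mean normalized count over the 3 libraries (x axis, log scale) for official genes, with members in red, open where the posterior standard deviation (SD) of the count was at least 1 in any library. The grey cloud narrows as counts rise, 50 of the 62 members lie below a mean of 100, and SINVm1_gene_13864 stands alone above 1000 at a log2 ratio of 2.16.

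Coding lengths of the members ran from 249 bases in SINVm1_gene_10936 to 13341 bases in SINVm1_gene_00260, with a median of 1247, against a median of 1368 over all official genes compared. Under 1000 bases were 25 members (40.3%, against 35.8% of all compared), and 10 members had 5000 bases or more (16.1%, against 5.67%). SINVm1_gene_10936 had 33.2 normalized counts in M_BB, against 14.9 in P_Bb and 12.5 in P_BB, and its short length placed it at 103 TPM in M_BB, against 47.2 in P_Bb and 38.9 in P_BB. The longest member, with more counts, was at 2.59 TPM in M_BB, against 0.36 in P_Bb and 0.30 in P_BB. By TPM, 42 members reached 10 in M_BB, against 23 in P_Bb and 24 in P_BB. All 62 members reached 1 TPM in M_BB, against 51 in P_Bb and 49 in P_BB. The rule chose the members for a higher level in M_BB, so nothing is read from these differences. Above 0 TPM in all 3 libraries were 61 members.

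The rule did not fix which polygyne library was the higher. P_Bb was above P_BB in 41 members (66.1%), P_BB was above P_Bb in 20, and both were at 0 in SINVm1_gene_10902, while P_Bb was the higher in 55.6% of all official genes compared. The median log2 difference of P_Bb to P_BB was 0.13 over the members and 0.03 over all compared genes. Among the 12 abundant members P_Bb was the higher in 7 and P_BB in 5. The polygyne libraries were within 1.2-fold of each other in 30 members (48.4%), against 67.7% of all compared genes. These shares were not matched for abundance. The median mean count was 44.4 over the members and 133 over all compared genes, and the part of counting error was not tested. The rule also capped the difference between the polygyne libraries in the members. In 6 of the 41 the expected counts of the polygyne libraries were equal (within 0.005), and P_Bb was the higher only after scaling.

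The 32 members not named above had 21.6 to 180.0 normalized counts in M_BB with a median of 42.7, against 6.40 to 68.3 with a median of 17.6 in P_Bb and 4.17 to 57.4 with a median of 18.3 in P_BB. Their log2 ratios to the nearer polygyne library ran from 1.04 to 1.67 with a median of 1.26. No 2 of the 62 members had consecutive identifier numbers.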

How the data were processed

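Antennal cDNA of 3 pooled worker classes was sequenced on the Illumina platform, 1 library for each class. The authors mapped read pairs onto a transcript reference and estimated counts with RSEM, without strand information. The submitters' processing notes name Bowtie2, RSEM and Cuffdiff, without versions. The study's methods give versions for its full dataset of 12 samples, and those used for the pooled libraries are not given in the sources used here. The authors deposited expected counts, which are estimates, often fractional, without normalization. The deposited TPM values with their intervals, the posterior mean counts and the posterior standard deviations were made by RSEM from the same reads. RSEM divides reads that fit several entries among them, so similar genes can exchange counts. The deposited transcript models named no official gene (0 lines), 0 members matched the RefSeq gene table, and an authors' file of expression patterns was not used, so members are given without position. For the members on its list the study gives linkage groups, none of them that of the supergene.

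Each library was scaled by its 75th percentile of expected counts, taken over every entry with zeros included. The factors, with geometric mean 1, were 1.11 for M_BB, 0.938 for P_Bb and 0.958 for P_BB. Log2 ratios used a pseudocount of 1, which understates the ratios of low genes. Folds and intervals used none, and intervals came from counts rounded to whole numbers. Coding lengths are the reference lengths, of which 99.3% are multiples of 3 over the official genes. Named were the members with a mean of at least 100, those on the study's list, the 10 others with the largest ratio to the nearer polygyne library, the 5 genes on either side of the threshold, the 5 members with the largest relative posterior standard deviation, members with consecutive identifiers or at most 3 counts in a polygyne library, the shortest and longest member, and the listed genes of metabolism or defense. The members and lists were chosen with earlier results of these data known. Alternatives used edgeR 4.0.16 and DESeq2 1.42.0 for scaling only. The rule was run on simulated counts with known folds and counting error only, in genes with higher mean counts than most members. That run leaves out amplification, colony differences and the division of shared reads. Analyses ran in Python 3.11 with numpy 2.4.6, pandas 2.3.3 and scipy 1.17.1, and figures were drawn with matplotlib 3.10.9.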

Additional observations from a re-analysis of the deposited data

How the results depend on the processing

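No paired analysis was possible because each worker class had 1 library. For the same reason no library could be left out. All 62 members met the rule under TMM, median-of-ratios and library-total scaling, and 61 did after thinning to equal totals. At a pseudocount of 5 the rule gave 48 genes, 47 of them members, and the 15 members lost had means from 13.4 to 59.8 normalized counts. Over all scaling, unit, pseudocount, thinning and posterior mean alternatives, 22 members were lost under at least 1. TPM with a mean of at least 1 gave 158 genes, 49 of them members. That alternative changed the unit and the minimum together, and the cause was not tested. The number of genes was 299 with no minimum count and 12 at a mean of at least 100, where 12 members also had both counting intervals above 1-fold. It was 254 at 1.5-fold and 11 at 4-fold. A pseudocount of 5 lowered the median log2 ratio to the nearer polygyne library to 1.15, by its construction. The 30 named members were chosen at 2-fold or more above both polygyne libraries, which left little room for a change of direction. Of their 240 log2 ratios to the polygyne mean under 8 alternatives, 235 stayed within their counting interval and 0 changed direction. The 5 that left it were SINVm1_gene_01130, SINVm1_gene_00237 and SINVm1_gene_00260 in TPM (1.46, 1.49 and 1.43), where a pseudocount of 1 weighs more on values this low, and SINVm1_gene_10902 at a pseudocount of 5 (3.41) and on posterior mean counts (1.09). The posterior mean counts, TPM without a pseudocount and the TPM intervals were alternatives chosen after seeing the data. Of these, posterior mean counts gave 62 genes, all 62 the same, with a median of 1.28, and TPM without a pseudocount gave a median of 1.36 over 61 members. Among the genes listed as higher in monogyne workers, 13 were higher in M_BB under every scaling and pseudocount tried. Members whose TPM intervals overlapped had means up to 43.3 normalized counts, and few counts leave wide intervals for ratios such as that of SINVm1_gene_13675 to P_BB (1.81 to 6.89).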
